A study of Caenorhabditis elegans with 6 samples.

Results

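Autophagy genes were examined in RNA-Seq libraries of *C. elegans*. The set held the genes with a symbol starting with *atg-*, *lgg-* or *epg-*, together with *bec-1*, *unc-51*, *vps-34*, *vps-15*, *sqst-1*, *sepa-1*, *rab-7*, *cup-5*, *let-363*, *daf-15*, *raga-1*, *aak-1*, *aak-2*, *hlh-30* and *mxl-3*, 38 genes of the 46739 in the count table. All 38 passed the filter on low counts and were tested. The members were chosen by name, with earlier results of these data known.

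In macroautophagy, a double membrane forms around cytoplasm, protein aggregates or organelles and closes to an autophagosome, which fuses with lysosomes where the contents are degraded. The Atg1 kinase complex, under control of the kinases TOR and AMPK, starts the process, a phosphatidylinositol 3-kinase complex marks the membrane, and ubiquitin-like proteins of the Atg8 family are coupled to it and bind the receptors that bring cargo. In *C. elegans*, autophagy removes P granule components from somatic cells of the embryo, and many long-lived mutants need autophagy genes for their long life.

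The study asked how gene expression changes when *Y37A1B.5*, an ortholog of human selenium-binding protein 1 now named *semo-1*, is targeted by RNAi. Wild-type Bristol N2 worms were kept at 20 °C on *E. coli* OP50 until young adulthood (64 h after synchronization) and then for 5 days on *E. coli* HT115 carrying either the empty vector L4440 (3 control libraries) or a *Y37A1B.5* plasmid (3 libraries labelled Y37A1B.5 RNAi). Each library came from whole lysate of many pooled worms, and the paper describes 3 independent experiments, which it names biological replicates. In RNAi by feeding, the bacteria make double-stranded RNA and all tissues of the worm are pooled in the lysate, so fewer cells of a type and less RNA per cell cannot be told apart.

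The count of the targeted gene goes against the label. *Y37A1B.5* (*semo-1*, WBGene00012538) was counted 1126, 1295 and 792 times in controls 1 to 3, and 4833, 3519 and 4189 times in labelled replicates 1 to 3, a log2 fold change of 1.85 ± 0.22 (SE, adjusted p = 0.000834, edgeR's quasi-likelihood test with Benjamini-Hochberg adjustment). Whether worm mRNA or RNA of the plasmid was counted was not tested, so these libraries are called labelled throughout. Libraries held 34403223 to 46733527 counts. Labelled replicate 3 stood apart, with a median absolute log2 difference over the 38 genes of 0.163 to labelled replicate 1 and 0.137 to labelled replicate 2, against 0.0508 between those 2 and 0.0580 to 0.0730 between controls. Over all genes tested, the median log2 fold change fell with exon length, from 0.09 in the lowest decile of exon length (median 428 bases) to −0.25 in the highest (median 4014 bases). Among marker genes, sperm (6 tested), intestine (8) and oocyte and eggshell (12) had 0 calls by edgeR, of which 0, 2 and 0 reached an unadjusted p under 0.05 and 0, 1 and 1 were called by DESeq2, where 9.87% of all genes were higher and 10.6% lower. Neuron markers had 1 lower of 9 (*unc-31*), 2 lower by DESeq2 and 8 values below 0. Body wall muscle markers had 1 higher of 7 (*unc-27*, at 0.53, adjusted p = 0.0230) and, by DESeq2, 1 higher and 1 lower. Of their values 4 lay above 0 and 3 below, the lowest *myo-3* at −0.45 (adjusted p = 0.0759, edgeR). Early embryo markers had 1 higher and 4 lower of 11 tested, with 9 values below 0 and a median of −0.32, and *med-1* and *med-2* had 0 counts in some libraries. Their summed level was 240.4 to 260.9 CPM (counts scaled to library size) in controls and 241.1 to 254.4 CPM in labelled libraries, but *pal-1*, the marker called higher, held 52.6% of the control sum. Without *pal-1*, a choice made after its values were seen, the sums were 111.0 to 123.5 CPM in controls and 85.99 to 97.6 CPM in labelled libraries, without overlap. Hypodermis markers summed to 168.9 to 189.8 CPM in controls and 128.2 to 150.0 CPM in labelled libraries, with 1 higher (*col-19*) and 1 lower (*sym-1*) of 7. Without *sym-1*, also chosen after its values were seen, the sums were 90.01 to 99.9 CPM and 91.2 to 106 CPM. Those sums still held *col-19*, at a mean of 15.5 CPM in controls and 26.2 CPM in labelled libraries. Each other remaining marker had a lower mean in labelled libraries. Of the 7 log2 fold changes, 6 were below 0, with a median of −0.20. The part of any of these in the results that follow was not tested, except where a value without labelled replicate 3 or without the length trend is given.

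Most autophagy genes did not pass the test. At an adjusted p under 0.05 over all 15003 genes tested, 6 of the 38 were lower in the labelled libraries, against 8.85% of all genes, and 1 was higher, against 4.81%. The genes that fell were *atg-2*, *epg-2*, *sepa-1*, *sqst-1*, *epg-5* and *hlh-30*, and *atg-3* rose. Of the 31 genes that did not pass the test, 28 had a 95% interval of the log2 fold change that lay between −0.5 and 0.5. The exceptions were *daf-15*, *let-363* and *epg-7*. Such a range also covers called differences, as of *atg-3* at 0.24 and *hlh-30* at −0.35, so lying within it does not show the lack of a change. The median log2 fold change over the 38 genes was −0.10, beside −0.03 over all genes, with 27 values below 0 and 11 above. The groups did not overlap for 15 genes lower in the labelled libraries, where 22.1% of all genes did the same, and for 10 higher, where 18.4% of all genes did. Together, the 38 genes took 0.403% to 0.407% of the counts of a control library and 0.356% to 0.365% of a labelled one, and these ranges did not overlap. Their summed CPM was 4008 to 4092 in controls and 3424 to 3772 in labelled libraries. Labelled replicate 3 was the lowest labelled library by this sum and the highest by its share of the counts.

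**Figure D1:**
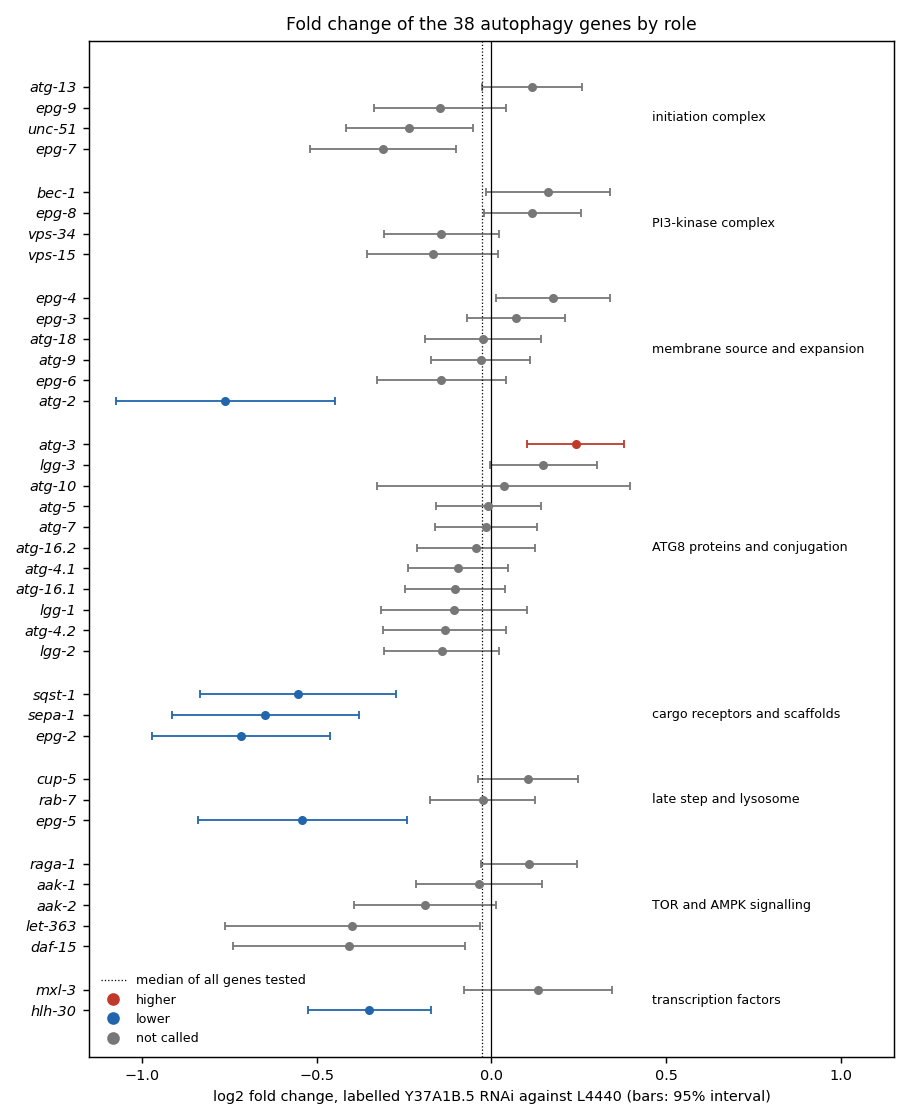
Log2 fold change (x axis, labelled Y37A1B.5 RNAi against L4440, n = 3 libraries each) of the 38 autophagy genes, sorted by role. Points are edgeR estimates, bars their 95% intervals, and the dotted line is the median of all genes tested (−0.03); the 3 cargo genes, *atg-2*, *epg-5* and *hlh-30* lie below 0 in blue and *atg-3* above 0 in red.

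Compared per length, as CPM per kb of exon in the controls, *lgg-1* was the most abundant gene at 725, which was 28.7% of the sum over the 38, followed by *lgg-2* at 179, *rab-7* at 154, *atg-18* at 134 and *epg-6* at 109. The least abundant were *atg-10* at 9.71, *mxl-3* at 8.20 and *epg-5* at 6.28 CPM per kb, so the range was 115.5-fold with a median of 36.0. Among all genes tested, 36 of the 38 lay above the median expression, and the lowest count of any member in a library was 160. Replicates were close. The coefficient of variation over 3 controls had a median of 3.71% for the 38 genes, beside 7.39% for all genes tested, and 6.75% over the 3 labelled libraries. It exceeded 10% for 1 gene in the controls, *atg-10*, and for 13 in the labelled libraries.

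**Figure D2:**
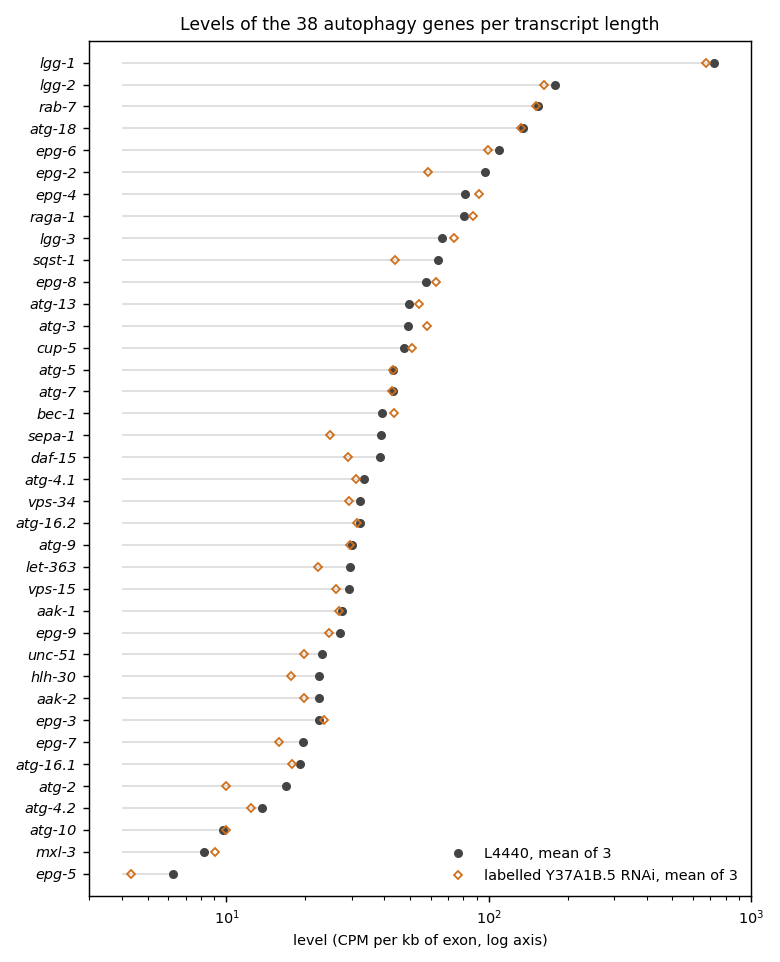
Level of each of the 38 autophagy genes (x axis, CPM per kb of exon, log axis), as the mean of 3 L4440 libraries (filled circles) and of 3 labelled libraries (open diamonds). *lgg-1* stands highest at 725 and *epg-5* lowest at 6.28 in the controls.

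The initiation complex had 4 genes, of which 0 passed edgeR's test, 2 had an unadjusted p under 0.05, and 1, *epg-7*, was called lower by DESeq2. *unc-51*, the Atg1 kinase (WBGene00006786, WBcel235 chromosome V, 19995986 to 20004485, minus strand), measured 70.1, 66.6 and 65.1 CPM in controls 1 to 3 and 59.1, 61.5 and 50.8 CPM in labelled replicates 1 to 3. The groups did not overlap, but the log2 difference of −0.24 ± 0.08 (SE) had an adjusted p of 0.0785 in edgeR. *epg-7*, a scaffold that links cargo to the kinase complex, had the adjusted p nearest to the threshold, 0.0534, at a log2 difference of −0.31 ± 0.09 (SE). The kinase's partners differed in sign, with 0.12 for *atg-13* and −0.15 for *epg-9*, the worm Atg101.

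The phosphatidylinositol 3-kinase complex also had 0 of 4 genes called by edgeR, 0 with an unadjusted p under 0.05 and 0 called by DESeq2. *bec-1*, the Beclin ortholog (WBGene00000247, chromosome IV, 5661141 to 5664425, minus strand), measured 54.05, 48.7 and 53.6 CPM in controls and 56.2, 54.8 and 63.8 CPM in labelled libraries. All 3 labelled values lay above the controls, and the log2 difference was 0.16 ± 0.08 (SE, 95% interval −0.02 to 0.34, adjusted p = 0.184, edgeR). The catalytic subunit *vps-34*, the regulatory kinase *vps-15* and *epg-8*, the counterpart of Atg14, had log2 differences of −0.14, −0.17 and 0.12.

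Of 6 genes for the membrane source and its expansion, *atg-2* alone passed the test, and among all 38 genes it had the lowest log2 fold change. *atg-2* encodes a lipid transfer protein that feeds the growing membrane (WBGene00019748, chromosome X, 6806763 to 6817266, plus strand). It measured 124, 131 and 127 CPM in controls 1 to 3 and 82.8, 87.4 and 55.5 CPM in labelled replicates 1 to 3. Every labelled library lay below every control, and labelled replicate 3 was lowest. *atg-2* fell by 0.76 ± 0.14 on the log2 scale (SE, 40.99% lower, adjusted p = 0.00798, edgeR), and by 0.58 without labelled replicate 3 (adjusted p = 0.000132). Its 7547 bases of exon place it among the longest members. With the trend of expression on exon length removed, the log2 fold change of *atg-2* was −0.35 (adjusted p = 0.00486), so the call was kept at a smaller size.

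The other genes of this step did not pass the test. *atg-18*, a reader of phosphatidylinositol 3-phosphate (WBGene00018294, chromosome V, 8629174 to 8631327, minus strand), measured 253, 232 and 242 CPM in controls and 236, 250 and 230 CPM in labelled libraries. The groups overlapped widely, with a log2 difference of −0.02 ± 0.07 (SE, 95% interval −0.19 to 0.14, adjusted p = 0.855, edgeR). Without the length trend the difference of *atg-18* took the other sign, 0.04. The related *epg-6* had −0.14, the transmembrane protein gene *atg-9* −0.03, and the endoplasmic reticulum protein genes *epg-3* and *epg-4* 0.07 and 0.18 on the log2 scale.

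The Atg8 proteins and their conjugation enzymes formed the largest group, 11 genes, with 1 higher, 0 lower and log2 differences of −0.14 to 0.24. *lgg-1*, the GABARAP-type Atg8 protein (WBGene00002980, chromosome II, 6346960 to 6347719, minus strand), measured 533, 522 and 485 CPM in controls and 428, 476 and 527 CPM in labelled libraries. The labelled libraries spread widely, from below all controls to within their range, and the log2 difference was −0.11 ± 0.09 (SE, 95% interval −0.32 to 0.10, adjusted p = 0.454, edgeR). *lgg-2*, the LC3-type Atg8 protein (WBGene00002981, chromosome IV, 10934196 to 10935903, minus strand), measured 194, 189 and 174 CPM in controls and 169, 174 and 161 CPM in labelled libraries. Labelled replicate 2 just reached the lowest control, and the log2 difference was −0.14 ± 0.07 (SE, adjusted p = 0.205, edgeR). The ratio of *lgg-1* to *lgg-2* per kb was 4.05, 4.05 and 4.096 in controls and 3.72, 4.01 and 4.796 in labelled replicates 1 to 3, so the labelled values lay on both sides of the controls.

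*atg-3*, the enzyme that passes Atg8 proteins to the lipid of the membrane (WBGene00021922, chromosome IV, 1010512 to 1012502, plus strand), was the one member that rose. It measured 49.3, 47.9 and 49.3 CPM in controls and 56.3, 57.4 and 59.4 CPM in labelled libraries. The groups were well apart relative to their spread. The log2 fold change was 0.24 ± 0.06 (SE, 18.2% higher, adjusted p = 0.0319, edgeR), with 0.23 without labelled replicate 3 (adjusted p = 0.0154). The call of *atg-3* was lost when any one of the other 5 libraries was left out (adjusted p 0.0519 to 0.136) and with 2 other scalings.

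The enzymes beside it did not pass the test. The activating enzyme gene *atg-7* had a log2 difference of −0.02, the Atg8 proteases *atg-4.1* and *atg-4.2* −0.10 and −0.13, and *lgg-3*, the worm Atg12, 0.15. Its partners *atg-5*, *atg-10*, *atg-16.1* and *atg-16.2* lay between −0.10 and 0.04. For *atg-10*, at 4.38 to 6.48 CPM, the 95% interval reached from −0.33 to 0.40.

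All 3 cargo receptor and scaffold genes fell. *epg-2*, a coiled-coil scaffold for the removal of P granule aggregates (WBGene00021468, chromosome I, 2300086 to 2302813, plus strand), measured 219, 232 and 210 CPM in controls 1 to 3 and 134, 157 and 111 CPM in labelled replicates 1 to 3. It fell by 0.72 ± 0.11 on the log2 scale (SE, 39.1% lower), with the smallest adjusted p among the members, 0.00371 in edgeR. The highest labelled value lay well below the lowest control.

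*sepa-1*, the receptor that binds P granule proteins and LGG-1 (WBGene00010808, chromosome I, 13298204 to 13300716, minus strand), measured 90.4, 89.0 and 79.0 CPM in controls and 55.7, 64.8 and 44.5 CPM in labelled libraries. It fell by 0.65 ± 0.12 on the log2 scale (SE, 36.1% lower, adjusted p = 0.00832, edgeR). In both genes labelled replicate 2 was the highest and labelled replicate 3 the lowest of the labelled libraries.

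*sqst-1*, the worm p62 and a receptor for ubiquitinated cargo (WBGene00011737, chromosome IV, 12034282 to 12036891, plus strand), measured 144, 147 and 144 CPM in controls and 111, 109 and 75.6 CPM in labelled libraries. The controls were nearly equal and labelled replicate 3 lay far below the other labelled libraries. *sqst-1* fell by 0.55 ± 0.13 on the log2 scale (SE, 31.9% lower, adjusted p = 0.0204, edgeR), and the call was lost without control replicate 1 (adjusted p = 0.0613) or control replicate 2 (adjusted p = 0.0721).

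Without labelled replicate 3, the log2 fold changes of *epg-2*, *sepa-1* and *sqst-1* were −0.59, −0.51 and −0.39, with adjusted p of 0.000536, 0.00247 and 0.000345. The 3 genes have 2280, 2221 and 2253 bases of exon. Once the trend on exon length was taken out, the values were −0.59, −0.53 and −0.43, with adjusted p of 0.00127, 0.00463 and 0.0142 in edgeR. The 5 genes listed as P granule components or cargo (*pgl-1*, *pgl-3*, *glh-1*, *meg-1* and *meg-2*) had 0 calls by edgeR, 0 with an unadjusted p under 0.05 and 0 by DESeq2, with log2 differences of −0.02 to 0.17. The summed early embryo markers were at 240.4 to 260.9 CPM in controls and 241.1 to 254.4 CPM in labelled libraries, with overlap. Without *pal-1*, a choice made after its values were seen, the sums were lower in all labelled libraries. Of the early embryo markers 4 were called lower and 1 higher, and their part in the cargo genes' fall was not tested.

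**Figure D3:**
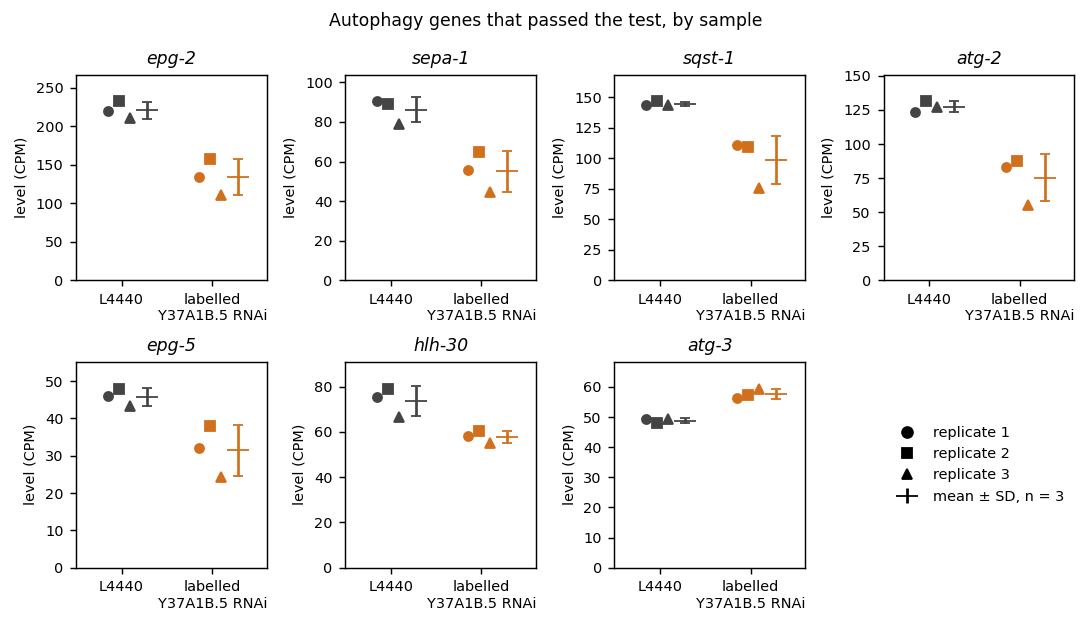
Level in CPM (y axes from 0) of the 7 autophagy genes that passed the test, with one symbol for each replicate and the mean ± SD of 3 libraries beside them. The groups do not overlap in any panel, and labelled replicate 3 (triangle) lies farthest from the control mean in all 7.

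Of 3 genes of the late step, *epg-5* fell. It encodes a tether between autophagosomes and lysosomes (WBGene00016968, chromosome II, 6598344 to 6609365, minus strand) and measured 46.1, 48.0 and 43.2 CPM in controls and 32.1, 37.9 and 24.3 CPM in labelled libraries. All labelled values lay below the controls, and *epg-5* fell by 0.54 ± 0.13 on the log2 scale (SE, 31.3% lower, adjusted p = 0.0273, edgeR). Without labelled replicate 3 the value was −0.38 (adjusted p = 0.0126), and the call was lost without control 1, control 2 or labelled replicate 1 (adjusted p 0.0553 to 0.103). *epg-5* has 7291 bases of exon, and with the length trend removed its log2 difference was −0.13 (adjusted p = 0.225), so that the call ended.

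*cup-5*, the lysosomal channel mucolipin (WBGene00000846, chromosome III, 7584181 to 7591581, plus strand), measured 130, 124 and 131 CPM in controls and 138, 139 and 137 CPM in labelled libraries. The labelled values were tightly grouped above the controls, with a log2 difference of 0.10 ± 0.06 (SE, adjusted p = 0.278, edgeR). With the length trend removed, *cup-5* was called higher at 0.28 (adjusted p = 0.0164). *rab-7*, the small GTPase of late endosomes and lysosomes, had a log2 difference of −0.02. It was the one member whose exons overlap those of another gene on its strand, *W03C9.5*, over 5.94% of its exon bases.

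In TOR and AMPK signalling, 0 of 5 genes passed edgeR's test, 2 had an unadjusted p under 0.05, and the same 2 genes, *daf-15* and *let-363*, were called lower by DESeq2. *let-363*, the TOR kinase (WBGene00002583, chromosome I, 5245743 to 5263424, plus strand), measured 257, 262 and 239 CPM in controls and 214, 229 and 133 CPM in labelled libraries. *daf-15*, the Raptor subunit of TOR complex 1 (WBGene00000911, chromosome IV, 9386208 to 9394979, plus strand), measured 225, 225 and 229 CPM in controls and 197, 193 and 123 CPM in labelled libraries. In both, the groups did not overlap and labelled replicate 3 lay far below the other libraries.

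The log2 difference was −0.40 ± 0.16 (SE) for *let-363* and −0.41 ± 0.15 (SE) for *daf-15*, with adjusted p of 0.124 and 0.0917 in edgeR. Without labelled replicate 3, both passed at smaller differences, −0.19 (adjusted p = 0.0421) and −0.21 (adjusted p = 0.00757). Without the length trend they were 0.05 and −0.06, with adjusted p of 0.685 and 0.598. *aak-2*, a catalytic subunit of AMPK (WBGene00020142, chromosome X, 16796087 to 16803398, plus strand), measured 57.0, 53.9 and 53.3 CPM in controls and 49.7, 52.8 and 41.3 CPM in labelled libraries, with a log2 difference of −0.19 ± 0.09 (SE, adjusted p = 0.173, edgeR). The second catalytic subunit *aak-1* had −0.04 and the Rag GTPase *raga-1*, which passes the amino acid signal to TOR, 0.11.

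Of the transcription factors, *hlh-30* fell. HLH-30 is the worm TFEB, an activator of autophagy and lysosome genes (WBGene00020930, chromosome IV, 4014793 to 4034951, minus strand). Its mRNA measured 75.5, 79.1 and 66.4 CPM in controls and 58.2, 60.3 and 54.9 CPM in labelled libraries. The labelled values lay close together below the lowest control, and *hlh-30* fell by 0.35 ± 0.08 on the log2 scale (SE, 21.5% lower, adjusted p = 0.0202, edgeR), with −0.31 without labelled replicate 3 (adjusted p = 0.0202). The call was lost without control 1, control 2 or labelled replicate 1 (adjusted p 0.0535 to 0.0976). With the length trend removed the log2 difference of *hlh-30* was −0.13 (adjusted p = 0.221), and the call ended. *mxl-3*, a repressor of lysosomal lipase genes (WBGene00003511, chromosome X, 13349639 to 13350804, minus strand), measured 7.82, 8.43 and 8.54 CPM in controls and 9.67, 8.59 and 8.99 CPM in labelled libraries. The lowest labelled value lay just above the highest control, and the log2 difference was 0.13 ± 0.10 (SE, adjusted p = 0.348, edgeR).

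**Figure D4:**
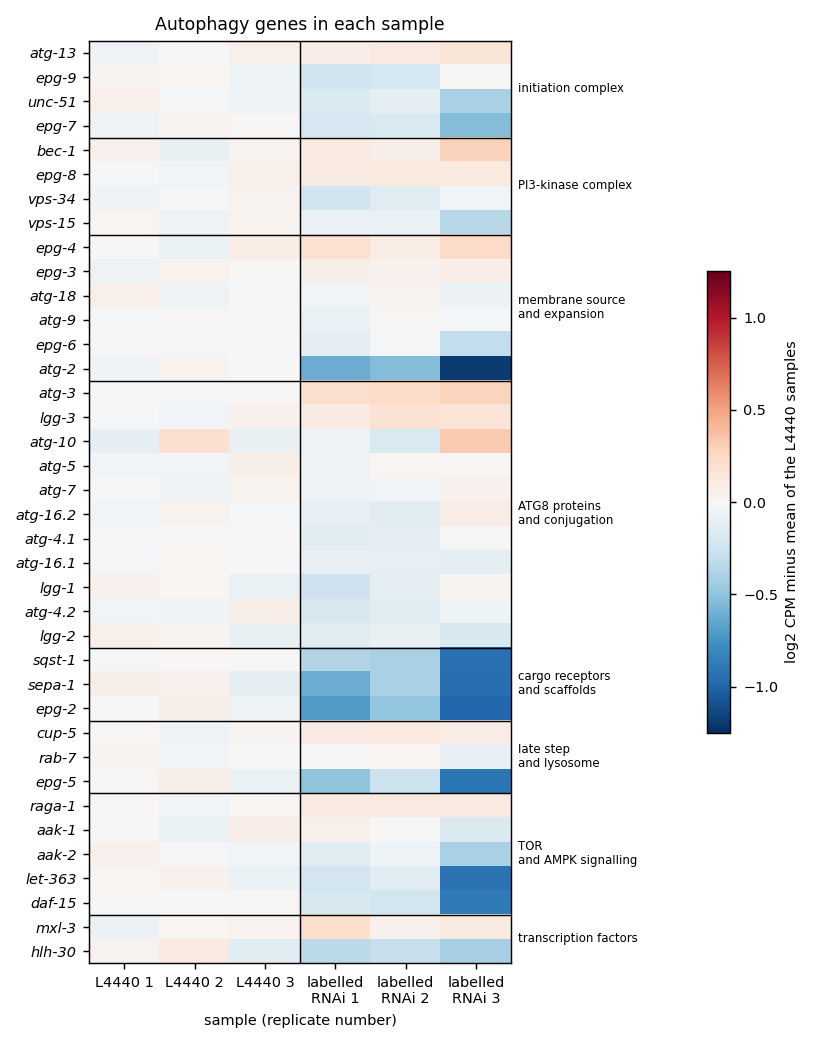
Log2 CPM of each of the 38 autophagy genes (rows, by role) in each of the 6 libraries (columns), minus the mean of the 3 L4440 libraries. Labelled replicate 3 shows the deepest blue, in *atg-2*, the 3 cargo genes, *epg-5*, *let-363* and *daf-15*.

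The sample map and the 7 called genes show how far labelled replicate 3 carries the sizes. It was farthest from the control mean for 7 of the 7. When it was left out, 11 of the 38 genes were lower, against 10.6% of all genes, and 1 was higher, against 7.89%. All 7 calls were among these 12, and the added genes were *daf-15*, *let-363*, *epg-7*, *epg-9* and *vps-34*. Without control replicate 1 or control replicate 2, 3 genes remained called lower, *atg-2*, *epg-2* and *sepa-1*, where 4.22% and 3.27% of all genes were lower. Those 3 genes kept their call in 14 of 14 alternatives.

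Transcript length was set beside each group of members. The 6 genes with more than 4 kb of exon (*atg-2*, *daf-15*, *epg-5*, *epg-7*, *let-363* and *vps-15*) had a median log2 difference of −0.40, beside −0.31 for all genes of that length. For the 12 members of 2 to 4 kb the median was −0.17 beside −0.12, for the 15 of 1 to 2 kb −0.02 beside −0.00, and for the 5 of up to 1 kb 0.04 beside 0.08. In each class the members' median differed from that of all genes by less than 0.1. With the trend removed, 4 of the 38 genes were lower, against 8.04% of all genes, and 3 were higher, against 11.5%. *atg-2*, *epg-2*, *sepa-1*, *sqst-1* and *atg-3* kept their call and *cup-5* and *epg-3* were added as higher, *epg-3* at 0.27 (adjusted p = 0.0236). Median log2 differences were then 0.01 over the members, beside 0.05 over all genes.

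**Figure D5:**
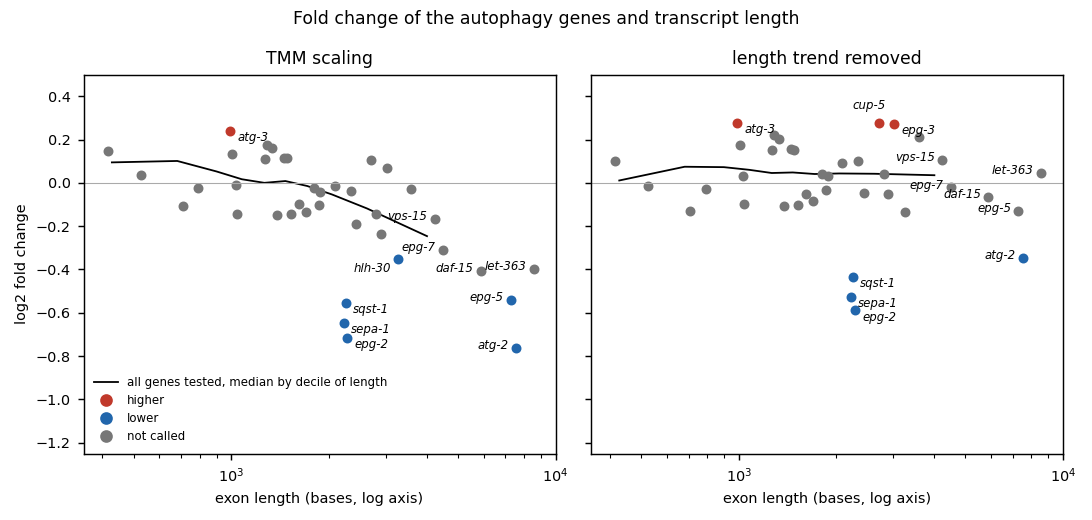
Log2 fold change (y axis) against exon length in bases (x axis, log axis) of the 38 autophagy genes (points, coloured by call), with the line joining medians of all genes tested by decile of exon length. On the left, with TMM scaling, the line falls from 0.09 to −0.25; on the right, with the length trend removed, *atg-2* and the 3 cargo genes still lie lowest.

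A wider list of genes that work with the members, written with earlier results of these data known, held 61 genes, of which 60 were tested. Of these, 5 were lower and 2 higher, beside the 8.85% and 4.81% of all genes, and the median log2 difference was 0.05. Among 15 genes of membrane tethering and fusion (HOPS complex, SNARE proteins and their regulators), 0 were called by edgeR, 3 had an unadjusted p under 0.05 and 1 was called higher by DESeq2. Among 20 further genes of TOR and AMPK signalling, *flcn-1*, the folliculin ortholog, fell by 0.31 (adjusted p = 0.0157, and −0.10 with the length trend removed, adjusted p = 0.322), and *lmtr-3*, of the Ragulator scaffold that holds Rag GTPases at the lysosome, rose by 0.34 (adjusted p = 0.0275, edgeR). Of 8 genes for the removal of mitochondria, *dct-1*, a mitophagy receptor of the BNIP3 type, fell by 0.39 (adjusted p = 0.0133, edgeR). It measured 65.2, 61.1 and 53.8 CPM in controls and 44.96, 47.1 and 45.8 CPM in labelled libraries, without overlap.

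The last 12 genes were of the lysosome membrane or were lipase genes controlled by HLH-30 or MXL-3. Lower were *ncr-1* and *ncr-2*, the worm genes of Niemann-Pick type C cholesterol transport, by 0.50 and 0.70 on the log2 scale (adjusted p = 0.0280 and 0.00837, edgeR). *ncr-2* was at 3.91, 3.45 and 3.20 CPM in controls and 2.16, 2.11 and 2.21 CPM in labelled libraries, so that all controls lay above. With the length trend removed both calls ended, *ncr-1* at −0.19 (adjusted p = 0.151) and *ncr-2* at −0.44 (adjusted p = 0.0521). The lysosomal lipase gene *lipl-2* fell by 0.43 (adjusted p = 0.0390), and *ctns-1*, the cystine transporter gene, rose by 0.29 (adjusted p = 0.0461, edgeR). Without control 1 or control 2, *ncr-2* alone of these 7 genes kept its call, and the adjusted p of the others was 0.0590 to 0.191.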

How the data were processed

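Poly(A) RNA of 6 whole-worm lysates was sequenced from stranded libraries. The authors deposited raw counts per gene. Per the paper and the submitters' processing notes, reads were converted with bcl2fastq 1.8.4, mapped to WBcel235 with TopHat2 2.1.0 and counted with featureCounts 1.5.0, on the gene's strand and for unique positions, so reads shared by near-identical genes are lost. All 6 count columns were used, with groups from the labels. Symbols, positions and union exon lengths came from Ensembl release 115.

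All genes were fitted with edgeR 4.0.16 in R 4.3.3 (TMM factors, filterByExpr with minimum count 10 and minimum total 15, quasi-likelihood test, two-sided, Benjamini-Hochberg adjustment over 15003 genes, threshold 0.05). The procedure was run on simulated counts drawn from each gene's mean and dispersion. That simulation held no deviating library and no length trend, so it cannot speak to either. SE and 95% intervals are those of the log2 fold change, and CPM is on the TMM scale. An exact permutation test of 3 against 3 reaches no p under 0.1.

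The members and lists were chosen with earlier results of these data known. The members given with values in every library were the 7 past the threshold and 10 others that stand for steps of the pathway. In the list of fusion genes, *rab-2* matched no row. Alternatives were DESeq2 1.42.0, RLE and upper-quartile factors, scaling to the reference genes *pmp-3*, *tba-1* and *cdc-42*, no filter beyond 1 count, each library holding at least 10 counts, a replicate block, leaving out single libraries, and the loess trend (span 0.5) of each library's log2 CPM on exon length removed as an offset. Promoter and protein sequences were not analysed here.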

Additional observations from a re-analysis of the deposited data

How the results depend on the processing

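No named fold change that passed the test changed its direction under the 14 alternatives. Of the 38 genes, 1 was called higher in the main result, 0 with upper-quartile factors and 0 with scaling to 3 reference genes. The number was 3 with the length trend removed and 0 to 1 with one library left out. Called lower were 6 in the main result, 9 with DESeq2, 9 with no filter, 8 with upper-quartile factors and 8 with reference genes. With the length trend removed 4 were lower, and 3 to 11 with one library left out. Of all genes, 3.25% were higher and 10.4% lower with upper-quartile factors, 2.55% and 6.45% with reference genes, and 9.87% and 10.6% with DESeq2. The shares were 5.02% and 7.82% with no filter, and 11.5% and 8.04% with the length trend removed. Without labelled replicate 3 they were 7.89% and 10.6%, and the lower shares without control 1 or control 2 are given above. The members' median log2 difference was −0.10 in the main result. DESeq2 gave −0.068, upper-quartile factors −0.13, reference genes −0.0709 and removal of the length trend 0.00806. Leaving out one library gave −0.0933 to −0.0635. Over all genes tested, the main median was −0.03. For these, DESeq2 (12238 genes) gave 0.0247, upper-quartile factors −0.0604, reference genes −0.00514 and removal of the length trend 0.0452. Each of these shifts had the same direction as that of the members' median. Leaving out one library gave −0.0404 to −0.00321 over all genes. The members' median lay below that of all genes in each of these settings. Of the wider list, 2 genes were higher, 5 with DESeq2, 1 with upper-quartile factors, 0 with reference genes and 5 with no filter. With the length trend removed 10 were higher, and 0 to 8 with one library left out. In the main result 5 were lower, 7 with DESeq2, 6 with upper-quartile factors, 4 with reference genes and 7 with no filter. With the length trend removed 2 were lower, and 1 to 6 with one library left out. Removing the length trend and leaving out a library are the alternatives themselves, and what caused the counts to differ was not tested.

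With a replicate block (replicate numbers as pairs), 1 member was higher and 9 lower, the 7 calls with *epg-7*, *let-363* and *unc-51* added, where 7.61% of all genes were higher and 11.8% lower. Deviations from the group means correlated by 0.163, 0.0979 and 0.152 for the same number and by −0.177 to 0.0709 for other pairs, so that each library correlated best with its own number, a hint from the data and not from the design.

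The lowest count of a member in a library was 160, and the part of counting error in the spread was not measured. The 3 libraries per group, with labelled replicate 3 apart, limit the precision. Separate experiments are stated for the libraries, but nothing here separates technical from biological spread.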
